A study of Mus musculus with 6 samples.

Results

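The renin-angiotensin and tissue kallikrein genes are described here in whole kidney of mice of 2 genotypes. The 9 members were taken by symbol from the deposited table of 24434 gene symbols: Agt, Ren1, Atp6ap2, Ace, Enpep, Mme, Agtr1a, Mas1 and Klk1. All 9 were in the table, and all 9 had enough counts to be tested. Polyadenylated RNA was sequenced from 3 libraries labelled db/db, named as the diabetic model by the design text, and from 3 labelled db/m, the controls; they are named db/db1 to db/db3 and db/m1 to db/m3. All 6 were labelled as kidneys of mice on normal chow, and no other treatment was named. The db allele disrupts the leptin receptor. Homozygotes develop obesity and diabetes, while db/m animals are heterozygous. The sources used here gave no strain, age or sex, and did not say which animals the libraries came from. All p-values therefore reflect library-to-library spread only.

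As background, renin is released by the juxtaglomerular cells of the afferent arteriole and cuts angiotensinogen to angiotensin I. Angiotensin-converting enzyme then makes angiotensin II, which acts on the type 1 receptor to constrict vessels and retain sodium. Peptidases of the proximal tubule brush border remove or redirect these peptides, and angiotensin 1-7 acts on the Mas receptor. Tissue kallikrein, made in the connecting tubule, frees kinins from kininogen, and the converting enzyme breaks kinins down, so the pathways share an enzyme.

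Total counts were 25937756 to 35931140 per library, and 3 counts, taken as the limit that a count of 0 allows, corresponded to 0.0759 to 0.12 counts per 1000000 counts (CPM). Levels are given as CPM of the TMM-scaled library size, and log2 fold changes (log2FC) are positive where db/db exceeded db/m. Of 10 listed brush border genes, 10 connecting tubule and collecting duct genes and 7 podocyte genes, all had counts. Of 8 adrenal genes in the table, the steroid hydroxylases Cyp11b1 and Cyp21a1 were at 0 in each library and Star, also a steroid synthesis gene, had 83 to 168 counts. Mc2r had 13, 13 and 18 counts under db/m and 3, 4 and 0 under db/db, Cyp11a1 had 11 and 7 counts in db/m2 and db/m3 and 0 elsewhere, and the list summed to 4.48 to 6.58 against 3.45 to 3.98 CPM. The 8 adipocyte genes summed to 178 CPM in db/m3 and 375 CPM in db/db3, against 52.0 to 73.2 CPM in the other libraries. Adipoq stood at 13.6 and 19.2 CPM in these libraries, but Lep, the leptin gene, had 485 counts in db/m3 and 0 in db/db3. Fewer cells of a type and less RNA per cell cannot be told apart in these bulk samples.

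Of the 9 members, 4 rose under db/db (Ace, Mas1, Klk1 and Agtr1a) and 1 fell (Atp6ap2) at an adjusted p below 0.05 by the edgeR quasi-likelihood test. Over all 16373 genes tested, 24.0% were called, 13.1% (2151) as higher and 10.8% (1774) as lower. Scaling by total counts alone gave 1072 higher and 4883 lower and moved the median of all genes from -0.06 to -0.32. Changes are therefore relative to the scaling used. The TMM factors were 1.062 to 1.122 in the db/m libraries and 0.9006 to 0.9225 in the db/db libraries, without overlap. The groups did not overlap for 6 members, the 5 called and Enpep, against 44.6% of all genes tested. The median log2 fold change over the members was 0.63. The calls on Ace and Klk1 were present under each of 16 other settings, whereas those on Agtr1a, Mas1 and Atp6ap2 were not. The number of members called higher was 2 without db/db1 or without db/db2, and the number called lower was 0 whichever library other than db/m3 was left out.

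**Figure D1:**
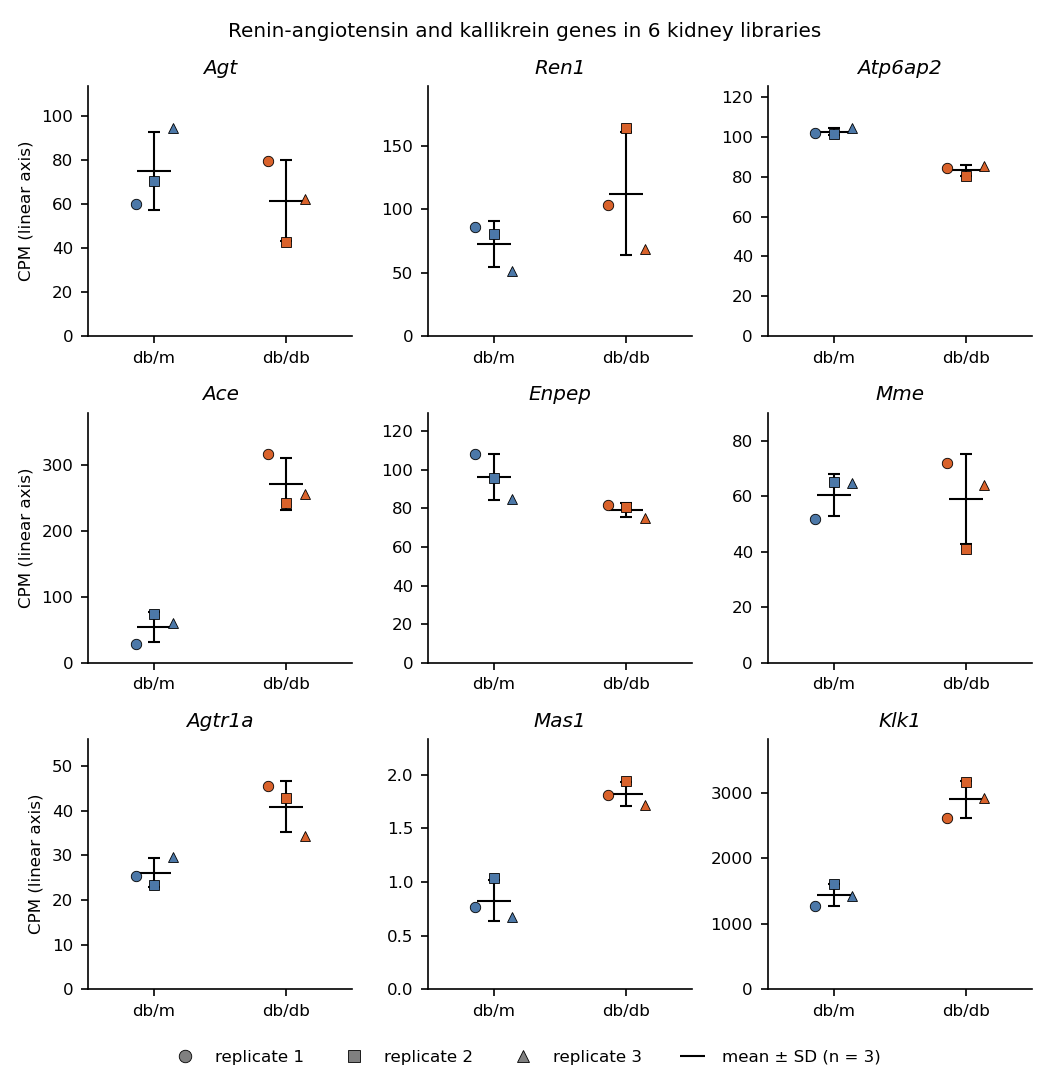
CPM of each member (linear axis from 0) in the 3 db/m and 3 db/db libraries, with the marker shape giving the replicate number and bars the mean ± SD (n = 3). Ace, Agtr1a, Mas1 and Klk1 lie higher in each db/db library than in any db/m library, Atp6ap2 and Enpep lie lower, and Agt, Ren1 and Mme overlap.

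Agt encodes angiotensinogen, the sole substrate of renin, which in the kidney is made mainly by proximal tubule cells. It stood at 60.0, 70.3 and 94.8 CPM in db/m1 to db/m3 and at 79.8, 42.7 and 62.3 CPM in db/db1 to db/db3. The groups overlapped, with the highest value in db/m3 and the lowest in db/db2. The means were 75.0 ± 17.9 and 61.6 ± 18.5 CPM (SD, n = 3 each), at log2FC -0.29 (SE 0.25, adjusted p = 0.428 by edgeR). Its 95% interval ran from -0.87 to 0.30, and so included both a moderate fall and a small rise. Adipocytes are also known to make angiotensinogen. Of the libraries with the most adipocyte RNA, db/m3 had the highest Agt, whereas db/db3, with more of that RNA, stood near its group mean and below db/db1. Without db/m3 the log2FC was -0.07, and it was -0.09 without db/m3 and db/db3. It was also -0.07 without db/db2, whose adipocyte genes summed to only 71.4 CPM, and -0.51 without db/db1. The part of adipocyte RNA in the Agt level was not tested.

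Ren1 encodes renin, the aspartic protease that sets the rate of the cascade. The 250 bases before its start in the RefSeq table (build GRCm38.p6, chr1:133350424-133350673, plus strand) are shown because this stretch is known to drive renin transcription in juxtaglomerular cells. Capitals mark TATAAA, the letters of a TATA box.
Ren1: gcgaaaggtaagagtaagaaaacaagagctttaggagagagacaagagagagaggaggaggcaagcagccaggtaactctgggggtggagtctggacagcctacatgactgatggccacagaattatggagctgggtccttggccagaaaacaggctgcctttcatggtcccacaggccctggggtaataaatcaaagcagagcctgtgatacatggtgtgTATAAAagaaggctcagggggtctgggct
The match lies at bases -29 to -24 from the start. On either strand, these letters were in 12.4% of 32851 windows of this length in the table. A match of letters is a description, and binding was not measured.

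Ren1 was at 86.0, 80.1 and 51.6 CPM in the libraries labelled db/m and at 103, 164 and 68.8 CPM in those labelled db/db. It varied most among the db/db libraries, and the lowest value of each group was in its replicate 3, the libraries with the most Adipoq. The means were 72.5 ± 18.4 and 112 ± 48.3 CPM (SD, n = 3 each), and the log2FC of 0.63 (SE 0.32) did not pass (adjusted p = 0.193, edgeR). Its 95% interval was -0.13 to 1.38. The value fell to 0.25 without db/db2, the highest library, and reached 0.89 without db/db3, with an adjusted p above 0.05 in both fits (0.547 and 0.0824). Because Ren1 is expressed by very few cells per kidney, mural markers were set beside it. None of 10 markers of mural cells, among them Acta2, Myh11 and Pdgfrb, was called in either direction by edgeR or limma-voom. DESeq2 called 2 higher, and 1 was higher at an unadjusted p below 0.05. Their summed level was 187 to 308 CPM under db/m and 240 to 280 CPM under db/db. These markers are not particular to renin cells, so they cannot show a change in the number of those cells.

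The log2 ratio of Agt to Ren1 counts, which does not depend on library scaling, was -0.52, -0.19 and 0.88 in the db/m libraries and -0.37, -1.94 and -0.14 in the db/db libraries. The groups overlapped (exact permutation p = 0.5, two-sided), and db/db2 combined the highest Ren1 with the lowest Agt.

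Atp6ap2 encodes the prorenin receptor, which is also an accessory subunit of the vacuolar proton pump. It was the least variable member, at 102, 101 and 105 CPM under db/m and 84.4, 80.2 and 85.4 CPM under db/db. Each db/db library lay below each db/m library. The difference was small, with means of 103 ± 1.72 and 83.3 ± 2.74 CPM (SD, n = 3 each) and log2FC -0.30 (SE 0.07, adjusted p = 0.021, edgeR). The call ended when any 1 library was left out (adjusted p = 0.0502 to 0.0705), at log2FC -0.31 to -0.27 in those fits. Atp6ap1, the other accessory subunit of the pump, was at 175 ± 14.9 CPM under db/m and 199 ± 3.96 CPM under db/db, and its log2FC of 0.19 (SE 0.09) did not pass (adjusted p = 0.155, edgeR). Of the 50-base windows of the Atp6ap2 transcripts, 2.53% occurred also in the predicted gene Gm36448, so a small part of its reads could be shared.

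Ace, which encodes angiotensin-converting enzyme, had the largest change of the 9. The RefSeq table gives it a start for the long somatic form and a start inside the gene, the position known to serve the testis form. Both windows of 250 bases are shown because a count summed over the gene cannot tell the forms apart (chr11:105967698-105967947 and chr11:105974939-105975188, plus strand, GRCm38.p6). Capitals mark the TATA box letters, the GC box letters GGGCGG and the CCAAT box, on either strand.
Ace, start of the long form: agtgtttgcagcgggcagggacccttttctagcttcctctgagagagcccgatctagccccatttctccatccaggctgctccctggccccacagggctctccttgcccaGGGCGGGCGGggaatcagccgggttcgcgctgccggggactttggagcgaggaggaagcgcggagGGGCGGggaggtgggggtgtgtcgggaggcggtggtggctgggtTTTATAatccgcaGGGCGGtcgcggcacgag
Ace, start inside the gene: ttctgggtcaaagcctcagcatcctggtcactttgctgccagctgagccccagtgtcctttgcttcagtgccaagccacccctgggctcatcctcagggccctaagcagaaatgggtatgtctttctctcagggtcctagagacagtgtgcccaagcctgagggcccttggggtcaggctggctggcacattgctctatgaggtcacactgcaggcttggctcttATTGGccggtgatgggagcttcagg
The window of the long form held GGGCGG at 4 positions, of which 2 overlap, and a TATA box match on the reverse strand at bases -31 to -26 from the start. The internal window held CCAAT on the reverse strand and neither of the others. GGGCGG was in 32.7% and CCAAT in 33.8% of the 32851 windows.

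In the libraries labelled db/m, Ace was at 29.0, 73.4 and 60.8 CPM. In the libraries labelled db/db it was at 317, 242 and 257 CPM. The lowest db/db library thus stood above the highest db/m library by a wide margin, although db/m1 was well below the other controls. The means were 54.4 ± 22.9 and 272 ± 39.4 CPM (SD, n = 3 each), a 5.0-fold difference (log2FC 2.32, SE 0.32, adjusted p = 0.00323, edgeR). Across the 16 other settings the log2 fold change ran from 2.03 to 2.61.

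Enpep encodes aminopeptidase A, which converts angiotensin II to angiotensin III. It was at 108, 96.0 and 84.6 CPM under db/m and at 81.7, 80.5 and 75.2 CPM under db/db, so the groups did not overlap but nearly touched. Its log2FC of -0.28 (SE 0.10) did not pass (adjusted p = 0.0874, edgeR), with a 95% interval of -0.53 to -0.04. It passed without db/m3 (-0.36, adjusted p = 0.0413) and with total count scaling (-0.54, adjusted p = 0.00594).

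Mme encodes neprilysin, which can make angiotensin 1-7 from angiotensin I and also degrades kinins and natriuretic peptides. It was at 51.9, 65.2 and 64.8 CPM under db/m and at 72.1, 41.0 and 64.1 CPM under db/db. The groups overlapped and the means of 60.6 ± 7.54 and 59.1 ± 16.1 CPM (SD, n = 3 each) nearly coincided, at log2FC -0.04 (SE 0.21, adjusted p = 0.908, edgeR, 95% interval -0.52 to 0.44). The sign turned without db/m2 (0.0229), db/m3 (0.0221) or db/db2 (0.172). The log2 ratio of Enpep to Mme was 0.67 ± 0.35 under db/m and 0.46 ± 0.44 under db/db (SD, n = 3 each, exact permutation p = 0.5, two-sided).

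Ace, Enpep and Mme are all brush border peptidases of the proximal tubule, and other genes of that surface were set beside them. Of 10 listed brush border genes, 5 rose, against 13.1% over all genes, and 0 fell by edgeR, while an unadjusted p below 0.05 gave 2 lower, DESeq2 1 and limma-voom 0. Their log2 fold changes ran from -0.36 to 1.79, against 2.32 for Ace. Their summed level was 8410 to 10722 CPM under db/m and 13204 to 15626 CPM under db/db. The largest part of that sum was Slc34a1, at 4927 ± 1304 and 6956 ± 1074 CPM, whose groups overlapped. Ggt1, the gamma-glutamyltransferase of the brush border, was at 663 ± 69.2 and 1793 ± 230 CPM (log2FC 1.44). It was 1 of the 5 called, with Mep1b (1.79), Mep1a (1.49), Pdzk1 (0.57) and Vil1 (0.57). Slc34a1 (0.50), Lrp2 (0.27), Cubn (0.04), Slc9a3 (-0.27) and Slc5a2 (-0.36) did not pass. The part of the brush border genes in the Ace result was not tested. An antisense gene, Gm11651, overlaps exons of Ace in GENCODE M21, and the strand setting used for counting was not given.

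Agtr1a encodes the main type 1 angiotensin II receptor of the mouse kidney. It was at 25.4, 23.5 and 29.7 CPM in the libraries labelled db/m and at 45.5, 42.9 and 34.4 CPM in those labelled db/db. The groups did not overlap, and db/db3 was the closest to the controls. The means were 26.2 ± 3.17 and 40.9 ± 5.79 CPM (SD, n = 3 each), a 1.56-fold difference (log2FC 0.65, SE 0.14, adjusted p = 0.0158, edgeR). The call ended without db/m2 (0.58, adjusted p = 0.0538), db/db1 (0.57, adjusted p = 0.0529) or db/db2 (0.62, adjusted p = 0.0542), and with total count scaling (0.38, adjusted p = 0.0733). Agtr1b, its close copy, had 0 to 5 counts per library and Agtr2, the type 2 receptor, averaged 0.0322 and 0.0264 CPM, so neither was tested. Of the 50-base windows of Agtr1a, 1.23% were shared with Agtr1b or predicted genes.

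Mas1 encodes the receptor of angiotensin 1-7 and was the rarest member. It had 21, 41 and 21 counts under db/m and 45, 49 and 47 counts under db/db, or 0.763, 1.04 and 0.676 CPM against 1.81, 1.94 and 1.72 CPM. The groups did not overlap, and the log2FC was 1.13 (SE 0.28, adjusted p = 0.0261, edgeR). The call was present without db/m2 and was lost when any other single library was left out (adjusted p = 0.0554 to 0.08, log2 fold change 1.01 to 1.18). Counts of 2 occurred 4164 times in the table and counts of 1 only 1318 times, so some fragments may enter the table several times, and counts as low as these may rest on fewer fragments than they show.

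Klk1 encodes tissue kallikrein, the kinin-forming protease of the connecting tubule. It is shown with its neighbour Klk1b5, the most abundant of its close copies here, since their rows share sequence. The windows are the 250 bases before each start (chr7:44225110-44225359 and chr7:44216224-44216473, plus strand, GRCm38.p6). Capitals mark CCAAT.
Klk1: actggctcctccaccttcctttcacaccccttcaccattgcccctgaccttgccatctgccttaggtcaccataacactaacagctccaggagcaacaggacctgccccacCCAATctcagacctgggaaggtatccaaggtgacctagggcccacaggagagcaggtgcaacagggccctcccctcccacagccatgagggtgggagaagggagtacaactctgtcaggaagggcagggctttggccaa
Klk1b5: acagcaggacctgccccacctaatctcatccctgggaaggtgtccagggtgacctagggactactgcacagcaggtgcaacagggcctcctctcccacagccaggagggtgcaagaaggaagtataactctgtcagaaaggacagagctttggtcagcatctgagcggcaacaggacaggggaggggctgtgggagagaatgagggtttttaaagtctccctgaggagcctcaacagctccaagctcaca
The Klk1 window held CCAAT at bases -139 to -135 from the start. The stretch that ends the Klk1 window has a similar stretch farther from the start in the Klk1b5 window. Positions are therefore not matched between the windows, and the Klk1 window has no counterpart of the last part of the other. Neither window held, on either strand, the TATA box or GC box letters, the androgen receptor core letters TGTTCT (found in 16.1% of windows) or the cyclic AMP response element TGACGTCA (found in 1.55%), and the Klk1b5 window held no CCAAT.

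Klk1 was at 1269, 1605 and 1425 CPM in the libraries labelled db/m. It was at 2610.1, 3169.7 and 2919 CPM in those labelled db/db, so its lowest db/db value was well above its highest db/m value. The means were 1433 ± 168 and 2899.6 ± 280.3 CPM (SD, n = 3 each), a 2.02-fold difference (log2FC 1.02, SE 0.13, adjusted p = 0.00231, edgeR). The log2FC was 0.75 to 1.11 over the 16 other settings. Of 10 markers of the connecting tubule and collecting duct, 0 rose and 2 fell by edgeR, against 24.0% of all genes called, and limma-voom called 1 lower. The 2 were Aqp2 and Avpr2, the water channel and vasopressin receptor of the collecting duct, named after their values were seen, and the Avpr2 groups overlapped. The connecting tubule genes Trpv5 (log2FC -0.02) and Slc8a1 (-0.41) did not pass. Nor did the sodium channel genes Scnn1a (-0.29), Scnn1b (0.17) and Scnn1g (-0.22), or Aqp3 (-0.30) and Hsd11b2 (-0.06). None of the 10 was higher at an unadjusted p below 0.05, by DESeq2 or by limma-voom. Their summed level was 1498 to 2386 CPM under db/m and 1070.5 to 1258 CPM under db/db. On average its largest part was the collecting duct gene Aqp2, at 721 ± 171 and 338 ± 82.3 CPM. The sum is therefore no measure of the connecting tubule alone. Of 6 distal convoluted tubule markers, 3 fell, against 10.8% over all genes, and 0 rose by edgeR, and none was higher by DESeq2, by limma-voom or at an unadjusted p below 0.05. The part of these cells in the Klk1 result was not tested. Calb1, the calbindin of the distal and connecting tubule, was at 439 ± 171 and 278 ± 19.4 CPM (adjusted p = 0.0909, edgeR). The log2 ratio of Klk1 to Calb1 was 1.84, 1.34 and 2.13 in the db/m libraries and 3.33, 3.52 and 3.29 in the db/db libraries. It was higher by 1.61 without overlap (exact permutation p = 0.1, two-sided, the smallest that 3 against 3 can give).

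**Figure D2:**
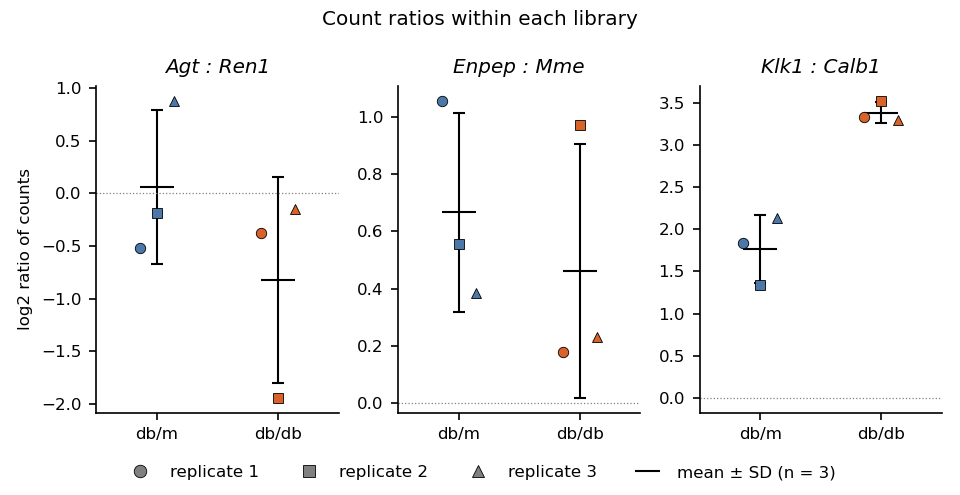
Log2 ratios of counts within each library for 3 gene pairs, with marker shapes for the replicate number and bars for the mean ± SD (n = 3). The Klk1 to Calb1 ratio does not overlap between groups, and the Agt to Ren1 and Enpep to Mme ratios do.

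The mouse has many Klk1b genes beside Klk1, encoding related glandular kallikreins. Of 12 Klk1b rows, 11 were tested, 6 rose and 0 fell, against 13.1% higher over all genes, and 9 did not overlap between groups, against 44.6%. DESeq2 and limma-voom called 0 lower, and an unadjusted p below 0.05 gave 0 lower. Their log2 fold changes were 0.65 to 1.25 with a median of 0.99, close to the 1.02 of Klk1. Klk1b5 was at 10.5 ± 1.43 and 20.7 ± 3.94 CPM, Klk1b3 at 2.76 ± 0.436 and 6.24 ± 0.808 CPM, Klk1b21 at 3.21 ± 0.863 and 6.67 ± 0.163 CPM, and Klk1b16 at 1.32 ± 0.262 and 3.15 ± 0.26 CPM (SD, n = 3 each). The calls on Klk1b5, Klk1b3 and Klk1b16 were present with each library left out. Klk1b21 lost its call without db/db1, without db/db2 and without db/db3 (adjusted p up to 0.0614), and Klk1b24 and Klk1b9 lost theirs whichever library was left out (adjusted p = 0.0585 to 0.146) and with total count scaling (adjusted p = 0.0705 and 0.104).

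As a share of the Klk1 count, the Klk1b rows summed to 1.89%, 1.63% and 1.68% in the db/m libraries and 1.77%, 1.67% and 1.69% in the db/db libraries. The share was thus almost the same in all 6 libraries, at 1.73% ± 0.139 and 1.71% ± 0.0544 (SD, n = 3 each), while the Klk1 level rose 2.02-fold. In GENCODE M21 transcripts, 24.0% of the 50-base windows of Klk1 occurred also in another gene, most often Klk1b5, and 12.7% of the windows of Klk1b5 and 10.1% of those of Klk1b3 occurred in Klk1. The separate counts of the Klk1b rows are therefore uncertain. Klk8, a more distant kallikrein with no shared window, was at 1.12 ± 0.218 and 1.55 ± 0.15 CPM, at log2FC 0.46 (SE 0.27, adjusted p = 0.243, edgeR). Its count was 0.0777% ± 0.00895 of that of Klk1 under db/m and 0.0534% ± 0.000731 under db/db, without overlap.

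**Figure D3:**
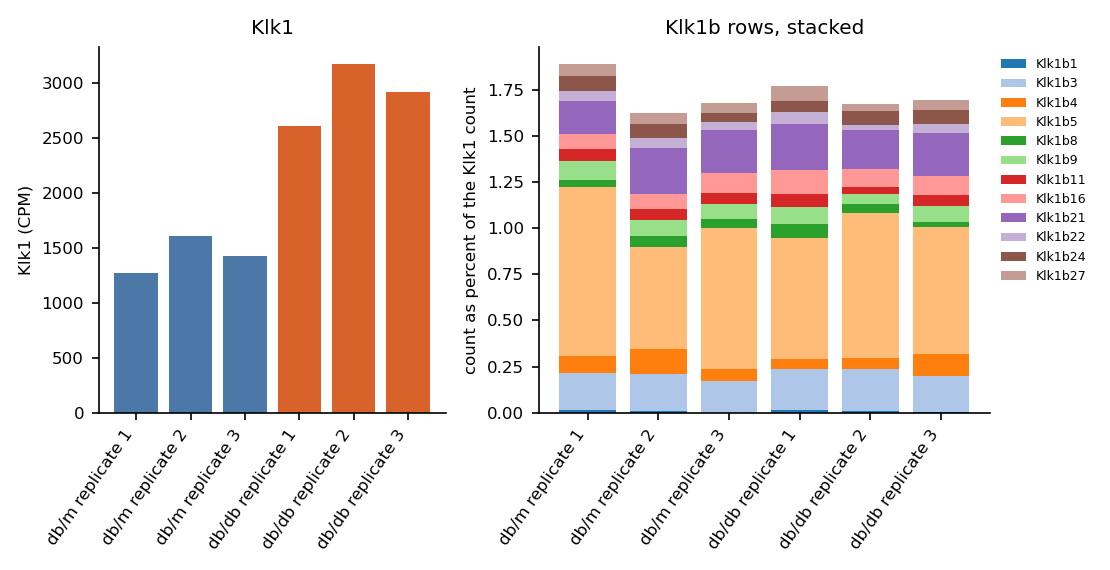
Left, Klk1 in CPM in each library. Right, counts of the 12 Klk1b rows stacked as a percent of the Klk1 count of the same library. Klk1 is higher in all 3 db/db libraries, whereas the stacked total stays between 1.63% and 1.89%.

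Per kilobase of exon in GENCODE M21, which may not be the annotation used for counting, Klk1 was by far the most abundant member, at 1331 ± 156 CPM per kb under db/m and 2692 ± 260.3 under db/db. Under db/m, Ren1 (43.8 ± 11.1 CPM per kb), Agt (39.7 ± 9.46) and Atp6ap2 (39.2 ± 0.658) came next and did not differ beyond their spread. Enpep (20.5 ± 2.49), Ace (10.3 ± 4.33) and Agtr1a (9.39 ± 1.14) followed, the last pair within their spread, ahead of Mme (5.25 ± 0.654) and Mas1 (0.315 ± 0.072). Under db/db, Ren1 (67.7 ± 29.1 CPM per kb) and Ace (51.5 ± 7.46) came after Klk1 and overlapped in their spread. Ace thus stood below Enpep in the control order and above Enpep (16.8 ± 0.733) in the db/db order.

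Other genes of angiotensin metabolism had smaller fold changes than Ace, with log2FC up to 0.81. Of 20 listed, 17 were in the table and 13 tested, of which 4 rose, against 13.1% over all genes, and 0 fell by edgeR. DESeq2, limma-voom and an unadjusted p below 0.05 also gave 0 lower, and the median log2FC was 0.10. Agtrap, whose product binds the type 1 receptor and promotes its internalisation, was at 69.7 ± 2.21 and 104 ± 8.32 CPM (log2FC 0.58, SE 0.09, adjusted p = 0.00398, edgeR). Prcp, a carboxypeptidase that can form angiotensin 1-7, was at 41.9 ± 7.21 and 73.4 ± 2.72 CPM (0.81, SE 0.13), and Anpep, aminopeptidase N, which acts on angiotensin III, at 114 ± 6.97 and 153 ± 4.71 CPM (0.42, SE 0.08). These calls were present with each library left out, but that on Anpep ended with total count scaling (0.16, adjusted p = 0.134). Dpp3, a cytosolic peptidase that cleaves angiotensins, had log2FC 0.31 (SE 0.08, adjusted p = 0.0325, edgeR). It was called in 1 of 6 fits that left out a library, without db/m3 (adjusted p = 0.0492), and was 0.05 with total count scaling. The remaining tested genes, among them Lnpep, Prep, Thop1, Nln, Ctsd and Ctsa, did not pass.

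Kinin-degrading enzymes differed in direction, since Ace rose 5.0-fold, Cpn1 fell and Mme did not pass. Of 14 other listed genes of the kinin system 11 were tested, 1 rose and 4 fell, against 13.1% higher and 10.8% lower over all genes, with a median of -0.28. Kng2, a kininogen gene, was at 417 ± 104 and 268 ± 33.5 CPM (log2FC -0.64, SE 0.18, adjusted p = 0.042, edgeR), and Kng1 at 4.71 ± 1.55 and 2.94 ± 0.289 CPM did not pass (adjusted p = 0.111). Cpn1, the catalytic subunit of carboxypeptidase N, which inactivates kinins, was at 127 ± 7.64 and 53.4 ± 4.09 CPM (-1.25, SE 0.09, adjusted p = 0.000322, edgeR). Xpnpep2, membrane aminopeptidase P, had -0.75 (SE 0.17), Dpp4 had -0.42 (SE 0.09), and Ece1, endothelin-converting enzyme, rose by 0.49 (SE 0.11). The call on Cpn1 was present with each library left out. Kng2 lost its call without db/m2 or when any 1 db/db library was left out (adjusted p up to 0.132), Xpnpep2 and Dpp4 without db/m2, db/db2 or db/db3 (up to 0.0686), and Ece1 without db/m2, db/db1 or db/db2 (up to 0.0628) and with total count scaling (0.120). Bdkrb2, the constitutive kinin receptor, was at 4.45 ± 2.54 and 3.68 ± 2.29 CPM and overlapped between groups, and the inducible receptor Bdkrb1 averaged 0.119 and 0.162 CPM, too low to test.

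Of 27 listed renin release and macula densa genes, not all of which act on renin itself, 26 were tested. By edgeR 0 rose and 7 fell, against 10.8% lower over all genes, with a median of -0.31. DESeq2 called 1 higher, limma-voom 0, and 1 was higher at an unadjusted p below 0.05. Adcy6, an adenylyl cyclase of renin cells and tubules, was at 176 ± 14.3 and 109 ± 4.43 CPM (log2FC -0.69, SE 0.09, adjusted p = 0.00239, edgeR), and Pde3b, a phosphodiesterase that degrades cyclic AMP, at 21.9 ± 6.26 and 11.1 ± 2.96 CPM (-0.98, SE 0.25). Creb1, Crebbp and Ep300, the cyclic AMP response factor and its co-activators, had -0.60 (SE 0.13), -0.31 (SE 0.08) and -0.60 (SE 0.11). Hoxd10, one of the HOX factors known to act at the Ren1 promoter, had -0.71 (SE 0.20). The calls on Adcy6 and Ep300 were present with each library left out. Creb1 lost its call without db/m2 or db/db3 (adjusted p up to 0.0655), Pde3b without db/m2, db/db1 or db/db2 (up to 0.0951), Hoxd10 whichever library but db/m1 was left out (up to 0.131) and Crebbp whichever library was left out (up to 0.111). These genes are expressed widely in the kidney, beyond the renin cells.

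The seventh gene called, Ptgs2, encodes the inducible cyclooxygenase of the macula densa and was named after its values were seen. It had 25, 68 and 87 counts under db/m and 9, 0 and 12 counts under db/db (log2FC -2.74, SE 0.82, adjusted p = 0.0486, edgeR). The groups did not overlap, yet the call was lost whichever library but db/m1 was left out (adjusted p up to 0.108). Akr1b7, which is known to be co-expressed with renin in juxtaglomerular cells, was at 3.78, 1.37 and 1.06 CPM under db/m and 6.02, 5.03 and 2.88 CPM under db/db and did not pass (adjusted p = 0.137, edgeR). Like Ren1, it was lowest in replicate 3 of each group. Its log2FC was 1.18, and it was named outside the naming rule. Other genes of this list that did not pass went both ways. Among those lower were Adrb1 (log2FC -0.94), Ptgir (-0.74), Gja5 (-0.61) and Gja4 (-0.32). Gnas (0.27), Ebf1 (0.09), Ptges (0.05) and Ptger4 (0.05) were higher.

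Of 21 listed regulators of angiotensin receptor signalling, which also include endothelin and its receptors, 1 rose and 4 fell. That share was near the 24.0% called over all genes, and the median was -0.33. Nox4, the renal NADPH oxidase, was at 335 ± 82.7 and 149 ± 2.74 CPM (log2FC -1.17, SE 0.17, adjusted p = 0.00376, edgeR), whereas Cyba, the p22phox partner of NADPH oxidases, was at 422 ± 37.6 and 692 ± 112 CPM (0.71, SE 0.13, adjusted p = 0.0102). Grk5, a receptor kinase, had -0.77 (SE 0.18), Plcb3, a phospholipase C, -0.42 (SE 0.11), and Arhgef1, a guanine nucleotide exchange factor, -0.40 (SE 0.12). The calls on Nox4 and Cyba were present with each library left out, and the other 3 were not (adjusted p up to 0.146): Grk5 was lost without db/m2, db/m3, db/db2 or db/db3, Plcb3 whichever library but db/m3 was left out, and Arhgef1 without db/m1, db/m2, db/db1 or db/db3. The G proteins Gnaq and Gna11 had -0.07 (SE 0.09) and -0.08 (SE 0.07).

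**Figure D4:**
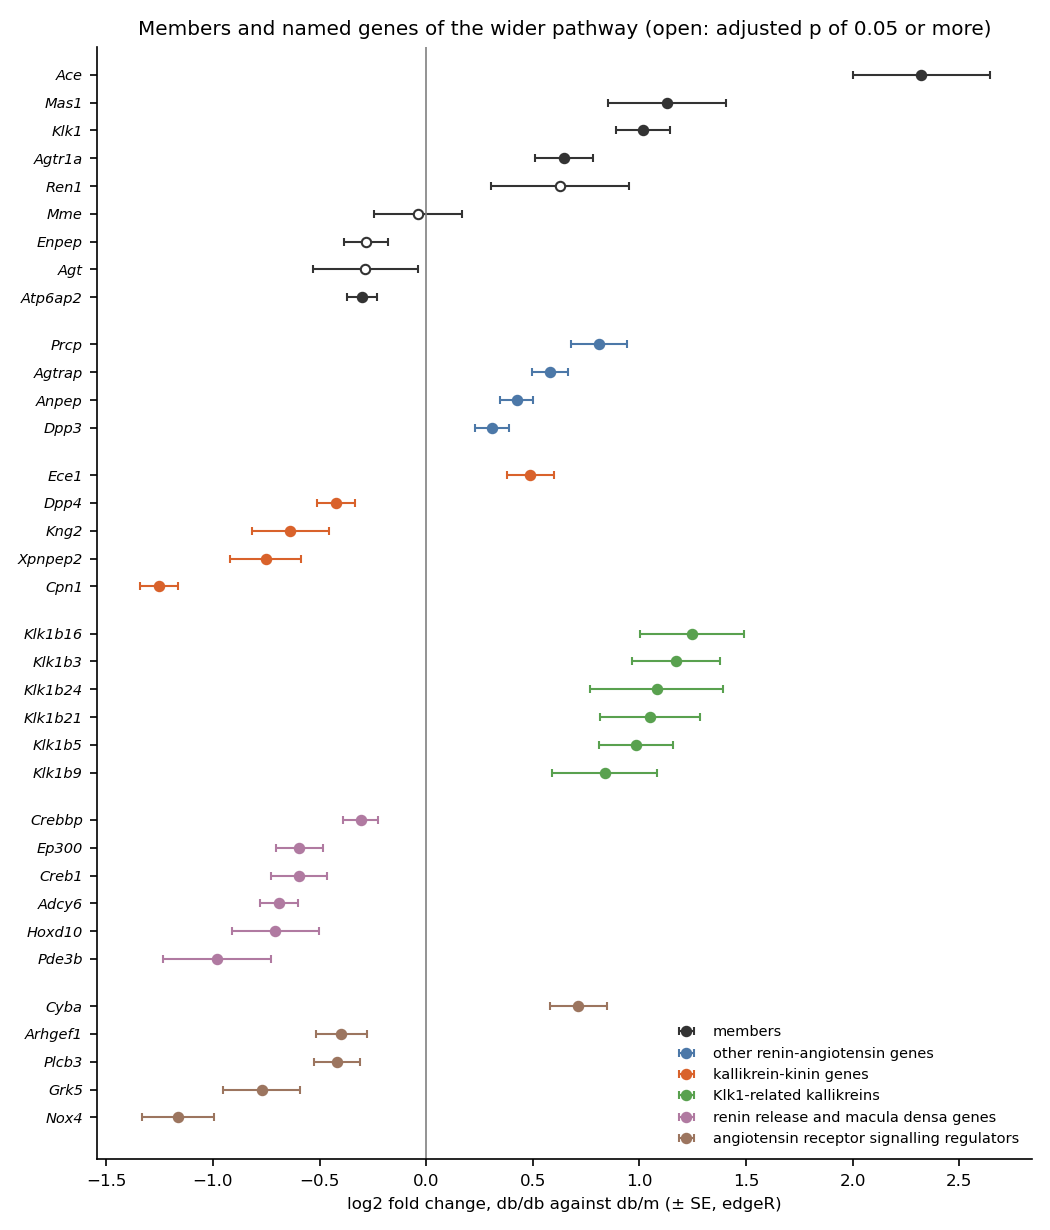
Log2 fold changes (± SE, edgeR, 3 against 3 libraries) of the 9 members and of the named genes of 5 wider lists, with open symbols where the adjusted p was 0.05 or more. Among them Ace has the largest rise at 2.32, the Klk1b genes lie near Klk1, and Cpn1 and Nox4 have the largest falls of the genes plotted.

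The genes whose log2 CPM followed each member most closely over the 6 libraries, of 10923 compared (10924 for Mas1), are given as a description, since the points share the group difference and their libraries. For Ace these were Ipp and Slc37a3 (Pearson r = 0.997 and 0.996), for Klk1 Dynlrb1 and Tiam2 (0.997 and 0.996), and for Agtr1a Fbln7 and Ppp2r1a (0.997 and 0.993). Ren1 was followed most closely by Coq8b and Fbxw4 (0.992 and 0.984), Agt by Strn and Eif2ak3 (0.993 and 0.987), and Mme by Mob1b and Gnai3 (0.996 and 0.985). Enpep had Atxn2 and Fam168b (0.9997 and 0.9963), Mas1 had Tbc1d1 (0.997), and Atp6ap2 had Vgll4 and Wrnip1 (0.996 each). No member was among the closest genes of another, and the fold changes of the closest genes could be far smaller, at 0.40 for Ipp against 2.32 for Ace.

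**Figure D5:**
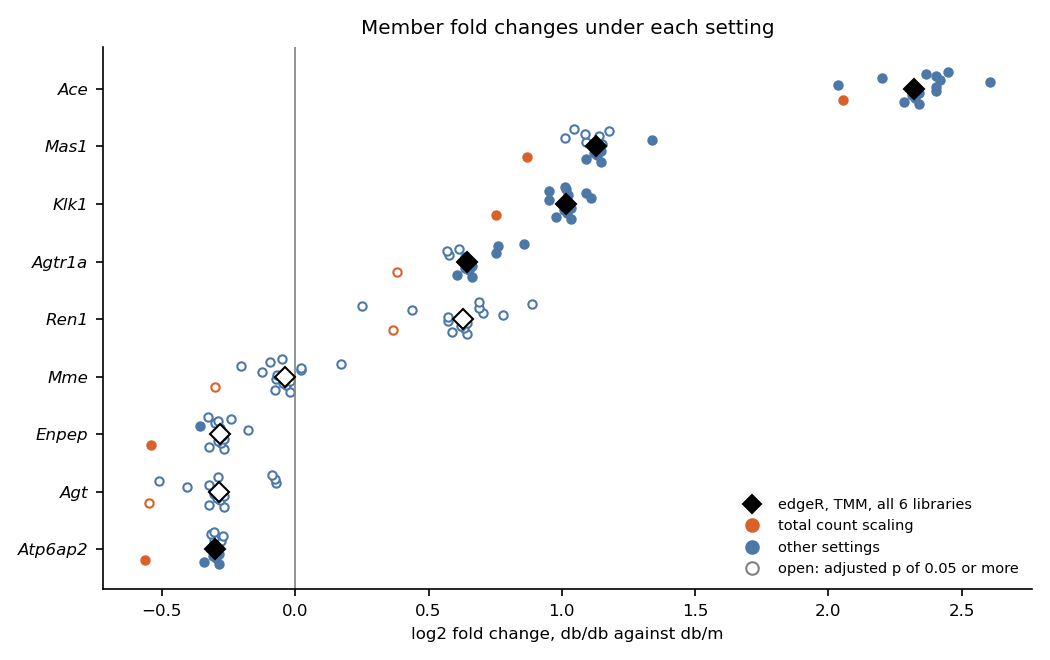
Log2 fold changes of the 9 members in the edgeR comparison of all 6 libraries (diamonds) and under the 16 other settings (circles), with open symbols where the adjusted p was 0.05 or more. Ace and Klk1 are filled throughout, Ren1, Agt and Mme are open throughout, and total count scaling moves each member to lower values.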

How the data were processed

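The authors deposited raw whole-number counts for each gene symbol, in 1 table whose columns were matched to the libraries by name. Per the labels' protocols, polyadenylated RNA was captured on oligo(dT) beads for stranded sequencing. The submitters' processing notes list DESeq2, StringTie, SAMtools, HISAT2, FastQC and fastp with neither version nor purpose. For the genome build, annotation and counting options, nothing is given in the sources used here.

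After filterByExpr, 16373 of 24434 genes were tested. Groups were compared with the edgeR 4.0.16 quasi-likelihood test (R 4.3.3, TMM scaling, no covariates) with Benjamini-Hochberg adjustment over all of them. DESeq2 1.42.0 and limma 3.58.1 (voom) were alternatives, beside other scalings, filters, a replicate block and left-out libraries. SEs are the log2 fold change divided by the square root of F. Replicates were compared by chi-square over their counts, which gave 15.9 to 59.5 per degree of freedom, more than sampling noise, and each was kept as a replicate. The fit was tested on simulated counts. It recovered 22.9% of 1.5-fold, 60.4% of 2-fold, 94% of 4-fold and 98% of 8-fold changes, with 2 false calls among 137. A gene that did not pass may therefore still differ by such smaller folds. Likeness used log2 CPM (prior count 2) over genes with a mean of at least 2.

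The members and lists were chosen with earlier results of these data known. Named were all members, up to 6 called genes of each wider list by smallest p with a mean log2 CPM of at least 0, and the 2 genes closest to each member. Some listed genes were named outside this rule, among them Atp6ap1, Kng1, Bdkrb2, Klk8, Akr1b7, Gnaq and Gna11. Results on some genes, among them 1 that the rule names for Mas1, are not reported here. Promoter windows (8 of 9 members matched) are from RefSeq, and exon lengths and shared windows from GENCODE M21, so they may differ from the annotation used. Ren2 was among the 20 listed other renin-angiotensin genes but had no row in the deposited table, so it was not analysed here. Whether Ren2 reads entered the Ren1 count was not tested.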

Additional observations from a re-analysis of the deposited data

How the results depend on the processing

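Of the alternatives tried, all but the joint removal of db/m3 and db/db3 were planned. That one was chosen after seeing the data. Ace, Klk1, Ren1 and Agt kept their direction and their side of the threshold under all 16. With total count scaling the log2 fold change of Agtr1a was 0.38 (no longer called) and that of Enpep -0.54 (called). That scaling gave 2 members lower, 2 other renin-angiotensin genes higher and 1 lower, 0 kinin genes higher, and 13 renin release and 11 receptor signalling genes lower. The DESeq2 test gave 2 kinin and 1 renin release genes higher.

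Same-numbered libraries had correlations of -0.15, 0.0574 and 0.143 in their deviations, so the numbers were not taken as pairs, and not every library correlated best with its own number. With a replicate block 1313 genes were higher and 973 lower. Agtr1a (0.64), Mas1 (1.15) and Atp6ap2 (-0.30) then missed the threshold, 2 members were higher and 0 lower, 0 kinin genes were higher and 2 lower, and 3 renin release and 1 receptor signalling genes were lower.

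Without both replicates 3, 1052 genes were higher and 660 lower. Agtr1a stayed called at 0.86. Mas1 (1.05) and Atp6ap2 (-0.30) missed the threshold, 0 members were lower, 0 Klk1-related and 2 other renin-angiotensin genes were higher, 0 receptor signalling genes were higher and 1 lower, 1 kinin gene and 3 renin release genes were lower. This leaves 2 libraries a group.

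Leaving out 1 library at a time gave log2 fold changes of 0.57 to 0.76 for Agtr1a, -0.31 to -0.27 for Atp6ap2, -0.36 to -0.18 for Enpep, 1.01 to 1.34 for Mas1 and -0.20 to 0.17 for Mme. The sign of Mme reversed without db/m2 (0.0229), db/m3 (0.0221) or db/db2 (0.172), never called. Counts ranged over 2 to 3 members higher and 0 to 1 lower, 3 to 4 Klk1-related genes higher, 0 to 1 kinin genes higher and 1 to 5 lower, 0 to 1 renin release genes higher and 2 to 6 lower, and 1 to 4 receptor signalling genes lower. Where a call changed the cause was not tested, other than that fits without a library rest on fewer libraries. Over the named pathway genes and alternatives, 317 comparisons kept the call, 114 lost it and 0 reversed. Depth limits Mas1, Agtr1b, Agtr2 and Bdkrb1.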
